A study of Mus musculus with 8 samples.

Results

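The nuclear genes for the subunits of the mitochondrial respiratory chain and ATP synthase were followed in CD8+ T cells from mouse spleen. Members were chosen by gene symbol alone, as the Nduf genes numbered within the A, B, C, S and V series, the Sdh genes a to d, and the Uqcr, Cox4 to Cox8 and Atp5 genes. This gave 84 of the 29426 symbols in the count table, with 35 in complex I, 4 in complex II, 8 in complex III, 20 in complex IV and 17 in ATP synthase (complex V). Of these, 78 passed the expression filter and were among the 12313 genes tested. Messenger RNA was sequenced from 4 groups of 2 libraries each, labelled mCre-MP, mCre-TN, WT-MP and WT-TN. MP and TN name subsets sorted on CD44 and CD122 after magnetic enrichment of CD8+ cells, and the design text of the series writes VM where the titles have MP. mCre and WT name the genotypes: the series title couples miR-29 with Cre, while the allele, the promoter driving Cre and the strain are named nowhere in them. No treatment is named for any group, and the protocol mentions spleens of both adult and neonatal mice without giving the age for a library. Nothing in the labels says that the 2 libraries of a group came from separate animals, so p-values measure only the spread between these libraries, which may be technical.

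The respiratory chain passes electrons from NADH, through complex I, and from succinate, through complex II, to ubiquinone. Complexes III and IV carry them on by way of cytochrome c to oxygen, and ATP synthase uses the resulting proton gradient to make ATP. Complexes I, III, IV and V are built from a few subunits encoded in mitochondrial DNA and many encoded in the nucleus, and all subunits of complex II are nuclear. In complex I the core subunits carry the flavin and the iron-sulphur clusters, while the accessory subunits surround them and are needed for assembly and stability. Memory CD8+ T cells are known for larger mitochondrial reserve capacity than naive cells.

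The sort markers followed the labels. Cd44 averaged 156 CPM (counts scaled to the library total) in mCre-MP against 14.8 CPM in mCre-TN, and 141 CPM in WT-MP against 14.8 CPM in WT-TN. Il2rb, which encodes CD122, averaged 1220 and 189 CPM in mCre-MP and mCre-TN, and 1340 and 196 CPM in WT-MP and WT-TN. Cd8a lay between 1600 and 1790 CPM in the 4 group means, and Cd4 was at or below 0.21 CPM. Total counts ranged from 13479586 to 30057658 per library, between 14834 and 15722 genes were detected, and the 84 members together took 0.695% to 0.745% of the counts. Of the lists of markers of other cells, myeloid and red-pulp macrophage genes summed to 25.7 to 28.5 CPM in the mCre libraries and 35.1 to 54 CPM in the WT libraries, with none of the 10 at 0. Over both subsets 7 of the 10 were called lower in mCre, against 5.97% of all genes. Cd68 averaged 11.4 and 12 CPM in mCre-MP and mCre-TN, and 10.3 and 11.2 CPM in WT-MP and WT-TN. Genes listed for NK cells summed to 706 to 739 CPM in mCre-MP and 364 to 379 CPM in mCre-TN. In WT they summed to 722 to 733 CPM in MP and 374 to 393 CPM in TN, and 4 of 4 rose in MP over TN in both genotypes. Nearly all of the sum was Nkg7 and Eomes, at 527 and 193 CPM in mCre-MP and 507 and 218 CPM in WT-MP. Klrb1c and Ncr1 had 2.01 and 0.387 CPM in mCre-MP, 2.4 and 0.45 CPM in WT-MP, and 0 in TN. Erythroid and platelet genes summed to 25.3 to 63.6 CPM in the mCre libraries and 14 to 24.3 CPM in the WT libraries, with 2 of 5 tested, Alas2 and Hba-a1, called higher in mCre over both subsets. B cell genes summed to 17.5 to 25.4 CPM across the libraries, and 1 of 4 tested, Cd22, was higher in MP, with 4.92 CPM in mCre-MP against 0.0758 CPM in mCre-TN and 6.17 CPM in WT-MP against 0.172 CPM in WT-TN. In the list for CD4 and regulatory T cells, Zbtb7b was higher in MP, with 15.5 CPM in mCre-MP against 2.18 CPM in mCre-TN and 19.5 CPM in WT-MP against 1.54 CPM in WT-TN. Cd40lg was lower in MP, with 1.64 against 7.83 CPM in mCre and 1.61 against 8.27 CPM in WT, and Foxp3 was called lower in WT-MP. The part of these other transcripts in the differences below was not tested, and in bulk RNA fewer cells of a type and less RNA per cell cannot be told apart.

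At the level of transcript per length, ATP synthase and cytochrome oxidase mRNAs were the most abundant. Atp5b, the catalytic beta subunit of ATP synthase, had the highest mean level over the 8 libraries, at 413 CPM per kilobase of transcript. Cox4i1, the largest nuclear subunit of complex IV, followed with 354, Uqcrh, the hinge protein of complex III, with 297, and Atp5e, the epsilon subunit of ATP synthase, with 289 CPM per kilobase. The median over tested members was 58.5 CPM per kilobase in complex I, 62.8 in complex II, 81.8 in complex III, 119 in complex IV and 116 in complex V. Within complex I the levels ran from 13.1 CPM per kilobase for Ndufa12 to 124 for Ndufa6, so subunits present together in the assembled complex differed widely in their mRNA level. Atp5s, which carries the ATP synthase prefix but is not a structural subunit, lay far below the others of its group at 2.66 CPM per kilobase.

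Where a subunit has tissue isoforms, the broadly expressed one supplied nearly all the mRNA. Per length, Cox4i1 made up at least 99.9% of the Cox4 pair, Cox6a1 at least 99.7% of the Cox6a pair, Cox6b1 at least 99.1% of the Cox6b pair and Cox8a at least 99.7% of the Cox8 set in each library. The 6 members that did not pass the filter were isoforms known from other tissues or from hypoxia. Cox6a2 and Cox8b, isoforms of heart and skeletal muscle, had 22 and 16 counts over all 8 libraries. Cox4i2, known from lung and from low oxygen, had 12 counts, Ndufa4l2, a hypoxia-induced relative of Ndufa4, had 2, and the testis isoform Cox7b2 had 1. Cox8c had 0 counts in every library, which allows up to 0.0177 CPM over the 8 libraries, for counting error only. Cox7a1, the muscle isoform of the COX7A set, did pass, with 1.03 to 1.72 CPM in every library and overlapping groups. Its relative Cox7a2l, a factor of the supercomplex joining complexes III and IV, supplied 69.2% to 75.2% of the COX7A set per length, and Cox7a2 supplied 23.7% to 29.9%.

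The c ring of ATP synthase is built from 1 mature protein that 3 genes encode with different import signals. Per length, Atp5g3 supplied 56.6% to 63.3% of the c-subunit mRNA over the libraries, Atp5g2 24.1% to 29.9% and Atp5g1 12.5% to 15.6%. The share of Atp5g1 averaged 15.3% in mCre-MP and 12.5% in mCre-TN, and 14.4% in WT-MP and 13.3% in WT-TN. The share of Atp5g3 averaged 57.6% in mCre-MP against 60.6% in mCre-TN, and 57% in WT-MP against 61.5% in WT-TN. These genes and their processed pseudogenes share sequence, and no source used here says how reads matching several places were counted, so the split among them is uncertain.

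Summed over a complex, the mRNA differed between subsets by a few percent. The 35 complex I mRNAs summed to 1964 and 2014 CPM in mCre-MP and to 1888 and 1867 CPM in mCre-TN, so that the groups did not overlap. In WT they summed to 1949 and 1995 CPM in WT-MP and to 1815 and 1983 CPM in WT-TN, where the second WT-TN library lay inside the MP range. In complex IV the mCre groups also did not overlap, and the second WT-TN library lay above both WT-MP libraries, with 1244 and 1281 CPM in mCre-MP against 1199 and 1187 CPM in mCre-TN, and 1279 and 1299 CPM in WT-MP against 1171 and 1311 CPM in WT-TN. Complex V summed to 2818 and 2846 CPM in mCre-MP and 2732 and 2737 CPM in mCre-TN, and to 2805 and 2864 CPM in WT-MP and 2721 and 2843 CPM in WT-TN. Complex II was higher in both WT-MP libraries, at 571 and 588 CPM, than in WT-TN, at 562 and 555 CPM, and in mCre it stood at 587 and 582 CPM in MP and 582 and 574 CPM in TN. Complex III showed no ordering by subset, with 674 and 693 CPM in mCre-MP, 681 and 671 CPM in mCre-TN, 691 and 705 CPM in WT-MP and 681 and 722 CPM in WT-TN. With 2 libraries against 2, an exact two-sided permutation test cannot give a p below 0.33, so the sums were not tested.

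**Figure D1:**
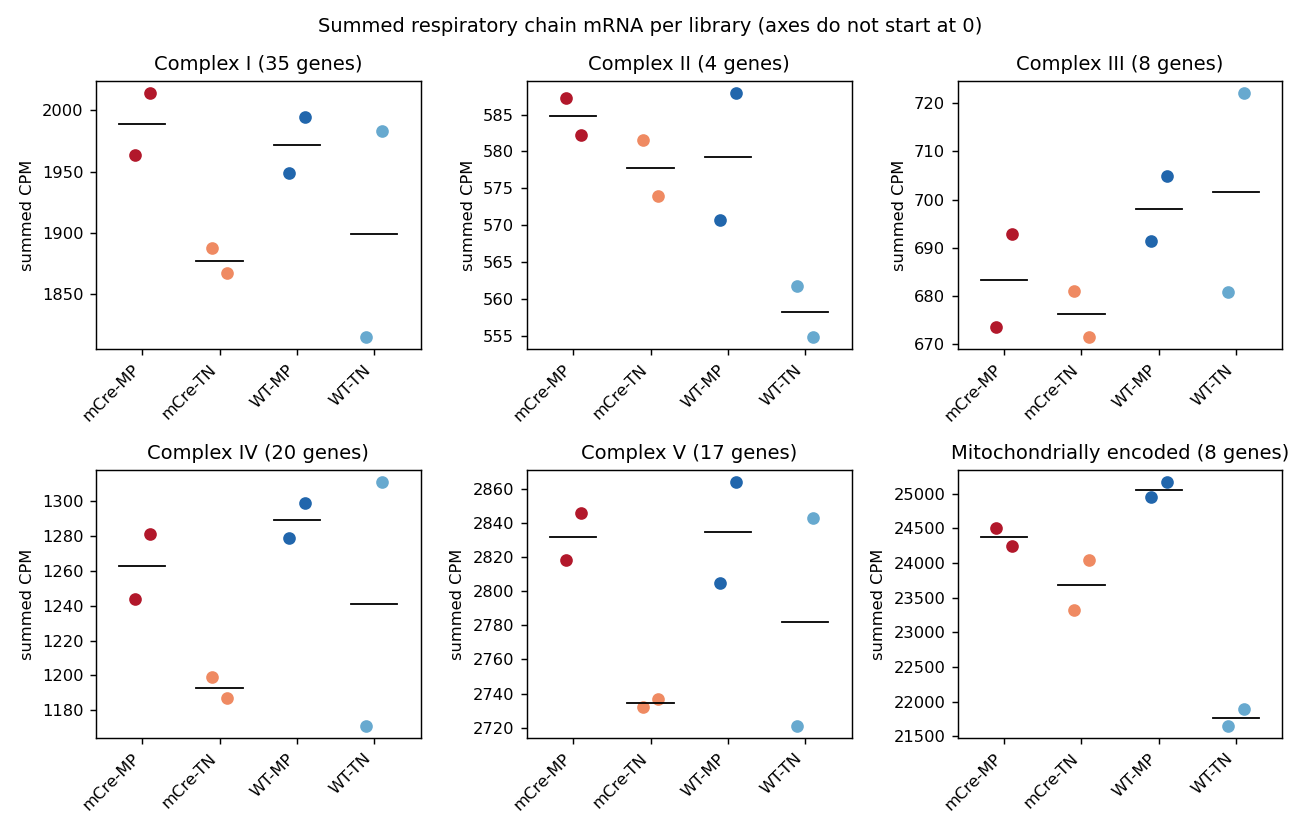
Summed CPM per library (vertical axes, not starting at 0) of each complex and of the 8 mitochondrially encoded genes in the table, for the groups mCre-MP, mCre-TN, WT-MP and WT-TN. Each point is a library and each bar the mean of 2. In complexes I, IV and V the 2 mCre-MP libraries lie above the 2 mCre-TN libraries, while WT-TN is split between a low library and one at the MP level.

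The first WT-TN library, also the one with the lowest total count, stood apart in these genes. The median deviation of the members from their mean over all libraries, on the log2 CPM scale, was 0.04 and 0.06 in the mCre-MP libraries and -0.06 and -0.07 in the mCre-TN libraries. In WT it was 0.04 and 0.07 in the MP libraries, against -0.11 in WT-TN replicate 1 and 0.02 in WT-TN replicate 2. The WT median and the WT calls on single members below are therefore given with a value found without a library where that moved them.

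Most members that differed between the subsets were modestly higher in MP than in TN. In mCre, 22 of 78 members (28.2%) were called higher in MP and 0 lower, at a Benjamini-Hochberg adjusted p under 0.05 in the quasi-likelihood test of edgeR. Over all genes tested, 17% were called higher and 15.5% lower in the same comparison. The median log2 fold change of the members was 0.11, or 7.67%, against 0.00 over all genes, and 66 of 78 were positive. In WT, 17 members (21.8%) were called higher in MP and 1, Cox7a2l, lower, with 16.2% and 15.6% of all genes called in those directions. Their median was 0.10, with 56 positive. Both comparisons were fitted to all 8 libraries with a shared estimate of the spread. Among called members, the largest difference in either genotype was a log2 fold change of 0.35, a 1.28-fold difference. DESeq2 called 13 members higher and 0 lower in mCre, against 13.5% and 11.9% of all genes. In WT it called 7 higher and 1 lower, against 13.1% and 12% of all genes.

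These counts depended on single libraries. The mCre count of 22 became 13 without mCre-TN replicate 1, 14 without mCre-TN replicate 2, 14 without mCre-MP replicate 1 and 9 without mCre-MP replicate 2. The WT count of 18 also moved widely when a library was left out. The WT median of 0.096 became 0.04 without WT-TN replicate 1, 0.093 without WT-MP replicate 2 and 0.197 without WT-TN replicate 2. Over all genes the median in these fits was 0.007, -0.002 and 0.012. In every fit that left out a library, 7 of the mCre calls (Atp5f1, Atp5g1, Atp5h, Cox6b1, Ndufa6, Ndufa9 and Uqcrb) and 2 of the WT calls (Ndufa6 and Sdhc) were made. For the other calls on members named below, the adjusted p without a library whose removal ended the call stands beside the value. Calls on single genes outside the members were not checked in this way. Calls made in mCre and WT coincided for 8 members, Ndufa3, Ndufa6, Uqcr11, Uqcrb, Cox5b, Cox6b1, Atp5f1 and Atp5h. A further 14 were called higher in mCre alone, of which 13 were positive in WT too, and 9 were called higher in WT alone, of which 9 were positive in mCre. No member passed the test of the difference between the subset differences, so these lists do not show that the genotypes differ.

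When the 4 MP libraries were set against the 4 TN libraries with genotype as a covariate, 38 of 78 members (48.7%) were higher in MP and 1, Cox7a2l, was lower. Of all genes tested, 23.2% were higher and 22.1% lower in that fit, and the members' median log2 fold change was 0.11. Of the 39 calls, 20 were made in every fit that left out a single library. These were Ndufa3, Ndufa6, Ndufa7, Ndufa9, Ndufb4, Ndufb5, Ndufb7 and Ndufb9 in complex I, Uqcr11 and Uqcrb in complex III, Cox5a, Cox5b and Cox6b1 in complex IV, and Atp5c1, Atp5f1, Atp5g1, Atp5h, Atp5j, Atp5j2 and Atp5o in complex V. With a trend on transcript length removed, 16 of 78 members were higher and 6 lower, against 23.8% and 21.5% of all genes.

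**Figure D2:**
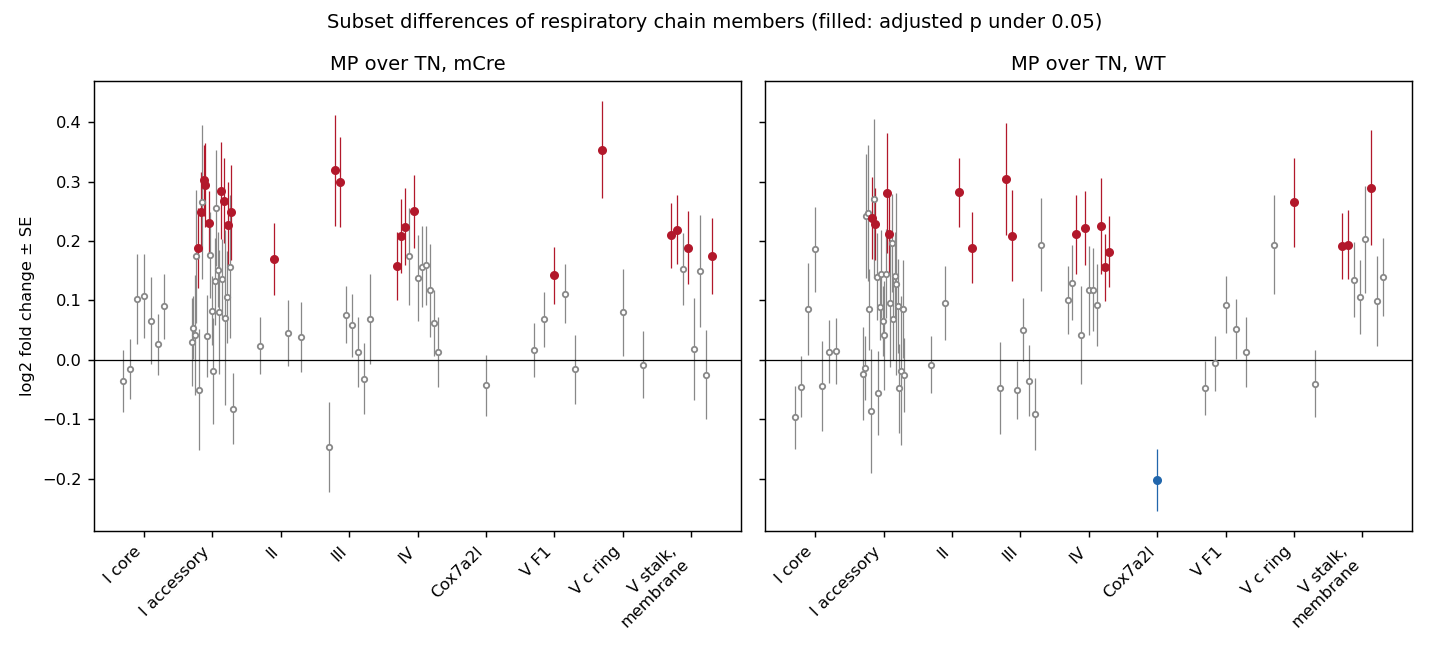
Log2 fold change of MP over TN (vertical axis) with its standard error, in mCre (left) and WT (right), for 75 tested members grouped by complex and role. Filled points passed an adjusted p of 0.05, red for higher in MP and blue for lower, and open grey points did not. The 7 core subunits of complex I hold no filled point in either genotype, while the accessory subunits hold 9 in mCre and 4 in WT. Cox6b2, Cox7a1 and Atp5s, with few counts or no structural role, are not drawn.

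In complex I, the calls within a genotype were all on accessory subunits. Of the 28 accessory subunits, 9 were higher in MP than in TN in mCre and 4 in WT, and of the 7 core subunits 0 were higher in either genotype. Of all genes, 17% were higher in mCre and 16.2% in WT, so the WT count is near that share, and whether core and accessory subunits differ was not tested. Ndufa6 (chr15:82350140-82354322, minus strand, coordinates on GRCm38 from GENCODE M21), a peripheral-arm subunit that binds the acyl carrier protein, had 75.4 and 83.7 CPM in mCre-MP and 65.2 and 67.2 CPM in mCre-TN. In WT it had 78.4 and 80.3 CPM in WT-MP and 68.5 CPM in each WT-TN library, so that every MP library exceeded every TN library. Its log2 fold change was 0.30 ± 0.06 (SE) in mCre (edgeR adjusted p = 0.000561) and 0.23 ± 0.06 in WT (edgeR adjusted p = 0.0071), and both calls were made whichever library was left out. With the trend on transcript length removed, the WT call was not made (edgeR adjusted p = 0.0766).

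Ndufa9, a subunit at the junction of the peripheral and membrane arms, had 98.5 and 101 CPM in mCre-MP against 85.1 and 88.9 CPM in mCre-TN. In WT it had 96.9 and 102 CPM in MP against 91.8 and 96.9 CPM in TN, with a much narrower gap. The log2 fold change was 0.23 ± 0.05 in mCre (edgeR adjusted p = 0.00256) and 0.09 ± 0.05 in WT (edgeR adjusted p = 0.239). The other complex I calls in mCre were Ndufa3 (0.25), Ndufa7 (0.29), Ndufa13 (0.19), Ndufb7 (0.29), Ndufb9 (0.27), Ndufs4 (0.23) and Ndufs6 (0.25), as log2 fold changes. Ndufb7 and Ndufb9 belong to the distal membrane arm, and Ndufs4 and Ndufs6 to the NADH-oxidising part of the peripheral arm. Without mCre-MP replicate 2 the adjusted p of Ndufb7 became 0.14, of Ndufb9 0.0762 and of Ndufa3 0.0727, and without mCre-MP replicate 1 that of Ndufa7 became 0.0632. Without mCre-TN replicate 2 it became 0.112 for Ndufa13, 0.107 for Ndufs4 and 0.059 for Ndufs6. In WT the others called were Ndufb4 (0.28), Ndufa3 (0.24) and Ndufb5 (0.21), both Ndufb subunits of the membrane arm. Without WT-TN replicate 1 their adjusted p became 0.251, 0.142 and 0.0861. Ndufb5 shares 616 exonic bases with Mrpl47 on the opposite strand, and Ndufa13 shares 375 with Tssk6. No source used here gives the strand setting of the counting, so reads of such partners cannot be told apart.

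The core subunits of complex I lay close to equal in the subsets. Ndufs1, the largest of them, which carries iron-sulphur clusters, had 93.7 and 95.3 CPM in mCre-MP and 101 and 97 CPM in mCre-TN, and 89.7 and 93.6 CPM in WT-MP and 102 and 96.4 CPM in WT-TN. The MP libraries were the lower ones in both genotypes, but the log2 fold changes of -0.04 (95% interval -0.15 to 0.07) and -0.10 (-0.21 to 0.02) did not pass the test. Ndufv1, the flavoprotein that binds NADH, had 98 and 96.3 CPM in mCre-MP, 97.8 and 97.3 CPM in mCre-TN, 92.9 and 94.4 CPM in WT-MP and 90.6 and 96.7 CPM in WT-TN, all overlapping. Of the 7, Ndufs7, which carries the terminal cluster before ubiquinone, passed in the fit across genotypes, with a log2 fold change of 0.15 ± 0.05 (edgeR adjusted p = 0.0215). That call was not made without WT-TN replicate 1 (adjusted p = 0.0564), mCre-TN replicate 1 (0.0559) or WT-MP replicate 2 (0.109). Ndufs3, Ndufs8 and Ndufv2 had log2 fold changes between -0.04 and 0.10 in the 2 genotypes, and none was called.

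Complex II showed calls on different subunits in the 2 genotypes. Sdhc (chr1:171127165-171150603, minus strand), a membrane anchor of complex II, had 79.2 and 78.1 CPM in mCre-MP and 77.4 and 78.6 CPM in mCre-TN, which overlap. In WT it had 80.3 and 85.7 CPM in MP and 66.5 and 71.1 CPM in TN, so both WT-MP libraries exceeded both WT-TN libraries. The log2 fold change was 0.05 ± 0.06 in mCre (edgeR adjusted p = 0.587) and 0.28 ± 0.06 in WT (edgeR adjusted p = 0.000844), where it was called under each of the 16 alternatives. The difference between these, -0.24 ± 0.08, had an unadjusted p of 0.0085 in edgeR and an adjusted p of 0.627. Sdhb, the iron-sulphur subunit, was higher in mCre-MP by 0.17 ± 0.06 (edgeR adjusted p = 0.0392, and 0.23 without mCre-TN replicate 2). Sdhd, the other membrane anchor, was higher in WT-MP by 0.19 ± 0.06 (edgeR adjusted p = 0.0223, and 0.164 without WT-MP replicate 1). Sdha, the flavoprotein with the succinate site and the most abundant of the 4, had 355 and 354 CPM in mCre-MP, 358 and 355 CPM in mCre-TN, 337 and 346 CPM in WT-MP and 357 and 338 CPM in WT-TN. Its log2 fold change was 0.02 (95% interval -0.08 to 0.13) in mCre and -0.01 (-0.11 to 0.09) in WT.

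In complex III the calls fell on 2 small subunits. Uqcr11 (chr10:80402997-80406830, minus strand), the smallest subunit of the complex, had 24.4 and 25.7 CPM in mCre-MP and 20 and 21.2 CPM in mCre-TN, and 26.9 and 31.2 CPM in WT-MP and 24.4 and 23.2 CPM in WT-TN. MP exceeded TN in both genotypes, and the log2 fold change was 0.32 ± 0.09 in mCre (edgeR adjusted p = 0.0127) and 0.30 ± 0.09 in WT (edgeR adjusted p = 0.0184). The adjusted p was 0.115 in mCre without mCre-MP replicate 2 and 0.221 in WT without WT-MP replicate 2. Uqcrb, the ubiquinone-binding protein, had 40.9 and 41 CPM in mCre-MP and 35 and 33 CPM in mCre-TN, and 42.6 and 45.1 CPM in WT-MP and 35.8 and 40.5 CPM in WT-TN. Its log2 fold change of 0.30 ± 0.08 in mCre (edgeR adjusted p = 0.00471) was called under each alternative, whereas 0.21 ± 0.08 in WT (edgeR adjusted p = 0.0455) was not called without WT-TN replicate 1 (adjusted p = 0.295). The others did not pass: Uqcrc1 and Uqcrc2, the large matrix-facing proteins of the complex, had 0.08 and 0.06 in mCre and -0.05 and 0.05 in WT, and the Rieske iron-sulphur protein Uqcrfs1 had 0.01 and -0.04. Uqcr10 was the member with the lowest value of the complex in mCre, at -0.15 (95% interval -0.31 to 0.01).

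Complex IV had calls in both directions in WT. Cox6b1 (chr7:30616861-30626151, minus strand), which faces the intermembrane space, had 94.2 and 97.1 CPM in mCre-MP and 80.9 and 83.8 CPM in mCre-TN, and 95 and 100 CPM in WT-MP and 78.3 and 90.1 CPM in WT-TN. Every MP library lay above every TN library, with log2 fold changes of 0.25 ± 0.06 in mCre (edgeR adjusted p = 0.00383) and 0.22 ± 0.06 in WT (edgeR adjusted p = 0.0107, and 0.141 without WT-TN replicate 1). Cox5b, a zinc-binding subunit, was higher in MP by 0.22 ± 0.06 in mCre (adjusted p = 0.079 without mCre-MP replicate 1) and 0.21 ± 0.07 in WT (0.169 without WT-TN replicate 1). In mCre, Cox5a was called at 0.21 ± 0.06 (0.103 without mCre-TN replicate 1) and Cox4i1 at 0.16 ± 0.06 (edgeR adjusted p = 0.0398, and 0.321 without mCre-MP replicate 2). In WT, Cox7c (0.23), Ndufa4 (0.18) and Cox8a (0.16) were called instead, each lost without WT-TN replicate 1 (adjusted p = 0.256, 0.195 and 0.167). Ndufa4 is a complex IV subunit despite its symbol.

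Cox7a2l (chr17:83501918-83517330, minus strand) was the member called lower in MP. It had 221 and 222 CPM in mCre-MP and 239 and 228 CPM in mCre-TN, and 231 and 222 CPM in WT-MP and 254 and 273 CPM in WT-TN. The WT-TN libraries were the highest of all 8, and MP lay below TN in both genotypes. The log2 fold change was -0.04 ± 0.05 in mCre (edgeR adjusted p = 0.57) and -0.20 ± 0.05 in WT (edgeR adjusted p = 0.00544), and -0.12 ± 0.04 across genotypes (edgeR adjusted p = 0.0159). The WT call was not made without WT-TN replicate 2 (adjusted p = 0.0932) or WT-MP replicate 2 (0.0731). Cox7a2, the isoform that occupies the same place in complex IV itself, went the other way across genotypes, at 0.14 ± 0.05 (edgeR adjusted p = 0.0222, and 0.0816 without WT-TN replicate 1).

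**Figure D3:**
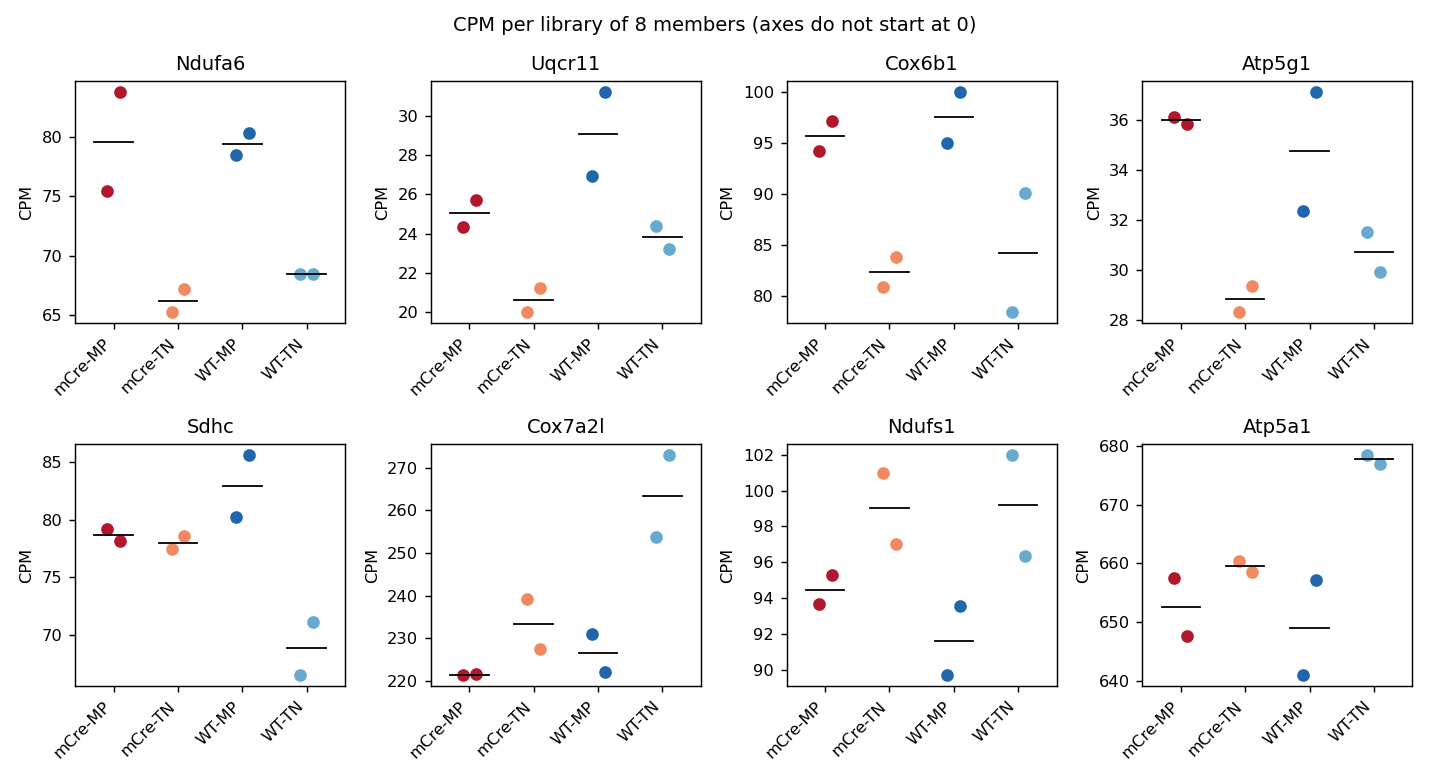
CPM per library (vertical axes, not starting at 0) of 8 members in mCre-MP, mCre-TN, WT-MP and WT-TN, each point a library and each bar the mean of 2. Ndufa6, Uqcr11, Cox6b1 and Atp5g1 are higher in MP, Sdhc is low in WT-TN alone, Cox7a2l is high in WT-TN, and the MP and TN libraries of Ndufs1 and Atp5a1 differ by a few percent.

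In ATP synthase, the called members were those of the c ring, the peripheral stalk and the membrane part, with 1 in the catalytic head in mCre. Atp5g1 (chr11:96068852-96075670, minus strand) had 36.1 and 35.9 CPM in mCre-MP and 28.3 and 29.4 CPM in mCre-TN, and 32.4 and 37.1 CPM in WT-MP and 31.5 and 29.9 CPM in WT-TN. It had the largest difference of any member in mCre, 0.35 ± 0.08 on the log2 scale (edgeR adjusted p = 0.00212, called under each alternative), and 0.19 ± 0.08 in WT (edgeR adjusted p = 0.0851). Atp5g2 had 0.08 ± 0.07 in mCre and was called in WT at 0.27 ± 0.08 (edgeR adjusted p = 0.0109, and 0.104 without WT-MP replicate 1). Atp5g3, the most abundant of the 3, had -0.01 in mCre (95% interval -0.13 to 0.11) and -0.04 in WT (-0.16 to 0.08), and was not called.

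Among the stalk and membrane subunits, 4 of 8 were higher in mCre-MP and 3 of 8 in WT-MP, against 17% and 16.2% of all genes. Whether these subunits differ from the rest of ATP synthase was not tested. Atp5f1, the b subunit of the peripheral stalk, had 163 and 164 CPM in mCre-MP and 146 and 143 CPM in mCre-TN, and 164 and 161 CPM in WT-MP and 136 and 152 CPM in WT-TN. The log2 fold change was 0.21 ± 0.05 in mCre (edgeR adjusted p = 0.00594) and 0.19 ± 0.06 in WT (edgeR adjusted p = 0.012, and 0.146 without WT-TN replicate 1). It shares 337 exonic bases with Wdr77 on the opposite strand. Atp5h, the d subunit of the stalk, was likewise called in both, at 0.22 ± 0.06 and 0.19 ± 0.06 (0.166 without WT-TN replicate 1 in WT). Atp5j2 (0.19), subunit f, and Atp5o (0.18), the protein that joins the stalk to the catalytic head, were called in mCre, and Atp5l (0.29), subunit g, in WT. Without mCre-MP replicate 2 the adjusted p of Atp5j2 became 0.158 and of Atp5o 0.232, and without WT-MP replicate 2 that of Atp5l became 0.342. The catalytic head gave 1 call, Atp5c1, the rotating gamma subunit, at 0.14 ± 0.05 in mCre (edgeR adjusted p = 0.028, and 0.145 without mCre-MP replicate 2). Atp5a1, the alpha subunit, had 657 and 648 CPM in mCre-MP, 660.5 and 659 CPM in mCre-TN, 641 and 657 CPM in WT-MP and 679 and 677 CPM in WT-TN. CPM are scaled to total counts, whereas the fits also apply a scaling factor of 0.99 to 1.017 per library, so these small gaps became 0.02 in mCre and -0.05 in WT. Atp5b had 798 and 803 CPM in mCre-MP, 771.5 and 791 CPM in mCre-TN, 778 and 797 CPM in WT-MP and 799 and 800.1 CPM in WT-TN, with 0.07 and -0.01.

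Grouped by role across the complexes, a grouping made after the values were seen and not tested, the members were divided into 17 and 61. The 17 were the 7 core subunits of complex I, the 4 subunits of complex II, Uqcrfs1 of complex III and the 5 subunits of the ATP synthase head. They had 2 higher in mCre and 2, Sdhc and Sdhd, in WT, with medians of 0.05 and 0.01 on the log2 scale. The 61 other tested members, Uqcrc1 and Uqcrc2 among them, had 20 higher in mCre, and 15 higher and 1 lower in WT, with medians of 0.15 and 0.12. Of all genes, 17% were higher in mCre and 16.2% in WT. The 17 have longer transcripts, with a median of 1363 bases against 659.

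Transcript length moved with the subset difference over all genes. The tested members were short, with a median of 737 bases against 2737 over all tested genes. Among the 1396 other tested genes of at most 1160 bases, the upper quartile of the members, 19% were higher and 5.66% lower in MP in mCre, and 16.4% were higher and 6.09% lower in WT. Their median log2 fold change was 0.06 in mCre and 0.07 in WT, and across genotypes 48.7% of the members were higher, against 25.8% of these genes. With the trend on length removed, 11 of 78 members were higher and 1 lower in mCre, against 17.5% and 15% of all genes. In WT 2 were higher and 2 lower, against 16.9% and 14.7% of all genes. The members' share of higher calls was thus below that of all genes in both genotypes, and their medians became 0.05 and 0.04. Across members, the rank correlation of length with the subset difference was -0.02 in mCre and -0.27 in WT over 78 genes, which share libraries and are not independent.

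**Figure D4:**
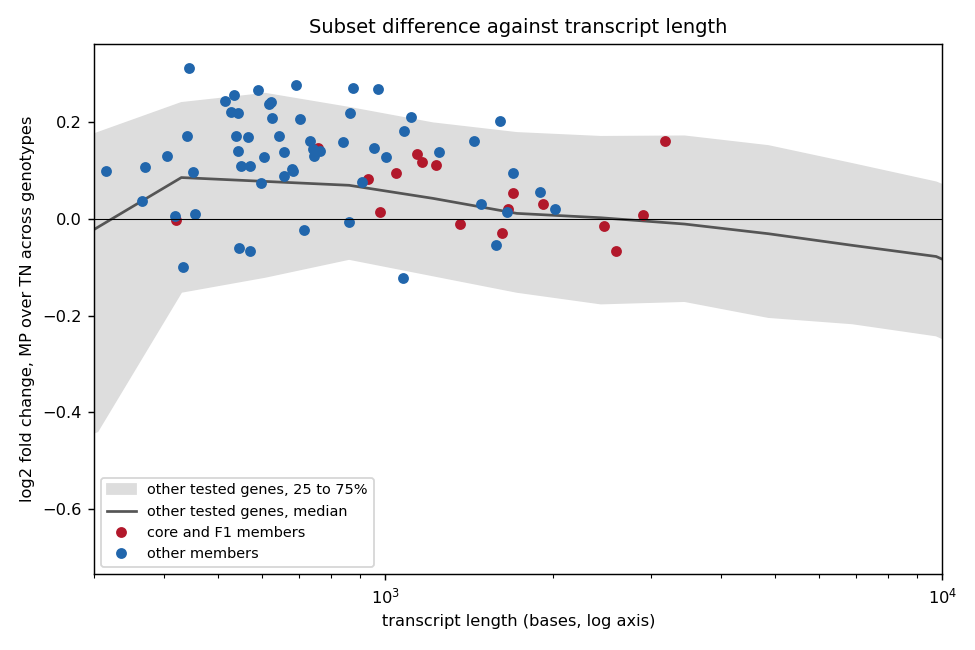
Log2 fold change of MP over TN across genotypes (vertical axis) against transcript length in bases (horizontal axis, log scale). The line and band give the median and the middle 50% of the other tested genes in bins of length. Red points are the 17 members of complex I core, complex II, Uqcrfs1 and the ATP synthase head. Blue points are those of the other 61 whose standard error was small. Most blue points lie above the line. Cox6b2, at a log2 fold change of -0.58 with 62 counts in all, had a large standard error and is not drawn.

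Promoter sequence was read for the members in the RefSeq promoter table (GRCm38.p6, 250 bases before to 50 after the start), where 66 of 84 matched. Searched on both strands, the letters CGCATGCG, the centre of the palindrome bound by NRF1, a regulator of respiratory genes, were present in 9 of the 66 (13.6%), against 4.48% of the tested genes and 2.07% of all genes in the table. The ETS letters CCGGAAGT, which GABP also binds, were present in 5 (7.58%), against 9.52% of tested and 4.31% of all genes. The YY1 letters AAGATGGCG were present in 7 (10.6%), against 3.7% and 1.64%. None of the 3 strings is contained in another. The windows below, from upstream of the start, show in the first 4 lines members called higher in MP in at least 1 genotype and in the last 3 lines members with the NRF1 letters that were not called. Capitals mark the motif.
Uqcr11 (ETS, chr10:80406870-80406897, minus strand): tctctcctccCCGGAAGTagatgtcaat
Atp5h (ETS on the opposite strand, chr11:115419941-115419968, minus strand): caaggagagaACTTCCGGcaactctctt
Atp5g2 (NRF1, chr15:102671071-102671098, minus strand): gctccggccgCGCATGCGcagagccttc
Atp5l (NRF1, chr9:44920965-44920992, minus strand): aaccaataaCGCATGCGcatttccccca
Atp5k (NRF1, chr5:108434431-108434458, minus strand): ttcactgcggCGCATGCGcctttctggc
Cox6a1 (NRF1, chr5:115349102-115349129, minus strand): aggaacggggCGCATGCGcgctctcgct
Ndufa11 (NRF1, chr17:56717693-56717720, plus strand): ctgcactgcgCGCATGCGcgcacgcctt
Of the tested members in the table, 10 of 32 called higher across genotypes held any of the motifs, against 9 of 31 not called, and 0 of 1 called lower. A match describes letters only and is not a site of binding.

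Between the genotypes, few members moved. In MP cells, 0 of 78 members were called between mCre and WT by edgeR and 0 by DESeq2, with 6 at an unadjusted p under 0.05, and 4.04% of all genes were called. In TN cells, 0 were called by edgeR and 0 by DESeq2, with 9 at an unadjusted p under 0.05, against 3.47% of all genes called. The median log2 fold change of mCre over WT was -0.01 in MP and -0.04 in TN. The TN median was -0.09 without WT-TN replicate 1, with 3 members called, and 0.04 without WT-TN replicate 2.

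Close to the threshold in MP was Ndufs4, needed for a stable peripheral arm of complex I. It had 51.3 and 51.1 CPM in mCre-MP and 42.6 and 43.1 CPM in WT-MP, and 45.6 and 43.7 CPM in mCre-TN and 41.2 and 47.9 CPM in WT-TN. The mCre-MP libraries stood above all others, with a log2 fold change over WT-MP of 0.26 ± 0.07 (edgeR adjusted p = 0.0529). Close to it in TN was Cox7a2l, at -0.19 ± 0.05 (edgeR adjusted p = 0.0503), where both mCre-TN libraries lay below both WT-TN libraries. Its adjusted p was 0.0263 without WT-TN replicate 1. These were named after their values were seen.

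Over both subsets, 2 members were lower in mCre, both of complex III, and 0 were higher, against 5.97% and 5.06% of all genes in those directions (11% in either). Uqcrh, which lies between cytochrome c1 and cytochrome c, had 143 and 159 CPM in mCre-MP and 160.1 and 168 CPM in WT-MP, and 159 and 157 CPM in mCre-TN and 168 and 185 CPM in WT-TN. The 4 mCre libraries lay below the 4 WT libraries, and the log2 fold change was -0.14 ± 0.04 (edgeR adjusted p = 0.0297). Uqcr11 was lower in mCre by -0.22 ± 0.07 (edgeR adjusted p = 0.0347). By the levels given above, both mCre libraries lay below both WT libraries within each subset. Neither call was made in every fit that left out a library: without mCre-MP replicate 1 the adjusted p was 0.103 for Uqcrh and 0.101 for Uqcr11, and without WT-MP replicate 2 it was 0.0798 and 0.161. The calls by edgeR numbered 5 without WT-TN replicate 1, and 0 without mCre-TN replicate 1, mCre-MP replicate 1 or WT-MP replicate 2. Without WT-TN replicate 2 the split was 1 higher and 0 lower in mCre. DESeq2 called 1, and with the length trend removed the split was 1 higher and 0 lower.

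**Figure D5:**
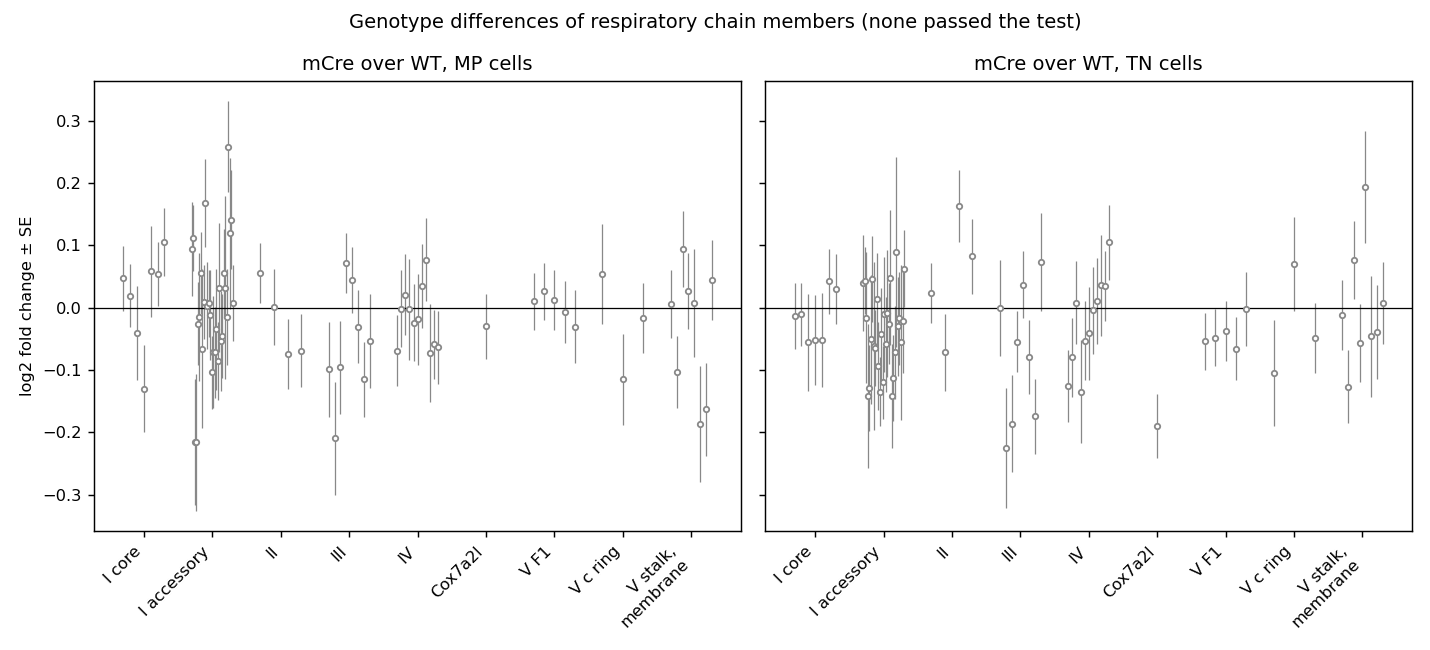
Log2 fold change of mCre over WT (vertical axis) with its standard error, in MP (left) and TN (right), for the same 75 members grouped by complex and role. No member passed an adjusted p of 0.05 in either subset. Ndufs4 is the highest point in MP, at 0.26, and Uqcr11 and Cox7a2l are among the lowest in TN.

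No member passed the test of whether the subset difference itself differed between the genotypes, with 0 called by edgeR and 0 by DESeq2, against 0.13% of all genes. At an unadjusted p under 0.05 there were 3, Sdhc (-0.24), Ndufs4 (0.28) and Cox7a2l (0.16), as mCre subset difference minus WT subset difference on the log2 scale. The median over members was 0.03, and -0.04 without WT-TN replicate 2.

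The subunits encoded in mitochondrial DNA were read at much higher levels. The 8 in the table summed to 24510 and 24240 CPM in mCre-MP and 23320 and 24040 CPM in mCre-TN, a ratio of 1.03, and to 24950 and 25170 CPM in WT-MP and 21650 and 21890 CPM in WT-TN, a ratio of 1.15. In WT-TN both libraries were low in this sum, unlike the nuclear members, where the second library was not. In MP over TN, 2 of the 8 were higher and 1 lower in mCre, against 17% and 15.5% of all genes. In WT 5 were higher and 0 lower, against 16.2% and 15.6%. The test of whether the subset difference differed between the genotypes called 0 of the 8. mt-Nd5 rose by 0.23 ± 0.05 in mCre (edgeR adjusted p = 0.000846) and by 0.37 ± 0.05 in WT (edgeR adjusted p = 4.75e-06). mt-Nd3 was lower in mCre than in WT by a log2 fold change of -4.30 in MP and -4.39 in TN.

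Some lists of related mitochondrial genes had medians of MP over TN close to those of the members, which were 0.107 in mCre and 0.096 in WT. Other lists lay nearer 0 or below it, in mCre and WT in that order. They had 0.03 and -0.005 for the TCA cycle, 0.04 and -0.023 for antioxidant genes, and -0.025 and -0.009 for fatty acid oxidation. Biogenesis regulators had -0.041 and -0.065, and the ATP synthase inhibitor and uncoupling list had -0.011 and -0.03. The lists close to the members had 0.093 and 0.071 for assembly factors, 0.093 and 0.086 for electron carriers and feeders, and 0.085 and 0.072 for mitochondrial ribosomal proteins. Of 48 tested assembly factors, 5 were higher and 3 lower in MP in mCre, and 3 were higher and 3 lower in WT, smaller shares than the 17% and 15.5% of all genes in mCre and the 16.2% and 15.6% in WT. Surf1, an assembly factor of complex IV, was higher by 0.34 ± 0.07 in mCre (edgeR adjusted p = 0.00152) and 0.32 ± 0.07 in WT (edgeR adjusted p = 0.00284). Cox10, which makes the heme precursor for complex IV, was lower in WT-MP by a log2 fold change of -0.32 ± 0.07 (edgeR adjusted p = 0.00167). Of 78 mitochondrial ribosomal proteins, 8 were higher and 1 lower in each genotype, again below the shares over all genes, led by Mrpl52 at 0.56 in mCre and 0.51 in WT. Of 19 electron carriers and feeders, 4 were higher and 1 lower in mCre, and 1 was higher and 1 lower in WT. Etfb, which passes electrons from fatty acid oxidation to ubiquinone, was higher by 0.64 ± 0.07 in mCre and 0.44 ± 0.07 in WT. Gpd2, the mitochondrial glycerol-3-phosphate dehydrogenase, was lower, at -0.47 and -0.58.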

How the data were processed

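Gene-level read counts of 8 libraries (4 groups of 2) were used as deposited. Per the submitters' processing notes, the authors used Trim Galore, HISAT2 and featureCounts on mm10; no source used here states versions, annotation or strand setting. Per the labels' protocols the libraries were made with a directional kit from Trizol RNA. All columns of the table were used, and no line lacked a gene name. All genes were fitted in edgeR 4.0.16 (R 4.3.3; limma 3.58.1) with TMM scaling, edgeR's expression filter, robust quasi-likelihood dispersions and a mean per group; the fits across genotypes or subsets used the other factor as covariate. Tests were two-sided, Benjamini-Hochberg adjusted over 12313 genes and called at 0.05. CPM were scaled to total counts, and per-kilobase values used the median length of a gene's principal GENCODE M21 transcripts (its exons where none is marked), in which all 84 members were found. Intervals are at the 95% level, and the limit for a count of 0 is 3 counts.

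The members and lists were chosen with earlier results of these data known. Genes named were, per comparison, up to 8 called members with the largest change in each direction, the isoform sets, the core subunits, the members not tested, and up to 4 called genes with the smallest p per other list; members outside this rule were named after their values were seen. Not every measured gene under this rule is reported here. Of the 84 members, 22 share exonic bases with a protein-coding gene on the opposite strand. No label says what libraries with the same replicate number share. Correlations between same-numbered deviations from the group means were 0.109 between the WT subsets and 0.077 between the mCre subsets. Between the genotypes they ran from -0.045 to -0.014. With 2 libraries per group, these values cannot decide whether the numbers pair the libraries. Replicates differed beyond sampling noise (chi-square per degree of freedom 4.13 to 6.12), so none was a duplicate. Alternatives were DESeq2 1.42.0, other size factors, other filters, a replicate block, a length trend removed by lowess, fits to the compared groups alone and leaving out each library. The procedure was tested on simulated data. Promoters came from RefSeq, read in Python 3.11.15.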

Additional observations from a re-analysis of the deposited data

How the results depend on the processing

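Medians of MP over TN stayed positive under every alternative run, and those of mCre over WT, all near 0, changed sign under some. For MP over TN in mCre, 22 were called, against 13 with DESeq2, 12 with the length trend removed and 9 to 28 with 1 library left out, and the median of 0.107 became 0.05 with the length trend removed. In WT, 18 members were called, against 8 with DESeq2, 4 with the length trend removed and 6 to 30 with 1 library left out; the median of 0.096 became 0.043 with the length trend removed and ran from 0.04 to 0.197 with 1 library left out. Across genotypes, 39 became 22 with the length trend removed, the median became 0.045, and leaving out 1 library gave 0.101 to 0.144. For mCre over WT, TN gave 1 call with no expression filter, 1 under the replicate block and 0 to 3 with 1 library left out, with medians from -0.091 to 0.04. MP gave 1 call with no expression filter, 1 under the replicate block, 1 with the length trend removed, 1 with the compared groups alone and 0 to 1 with 1 library left out. Across subsets, 2 became 1 with DESeq2, 1 with the length trend removed (median 0.014) and 0 to 5 with 1 library left out. The median of the interaction ran from -0.044 to 0.082 with 1 library left out. With TMM library sizes, summed ratios of MP over TN in mCre were 1.08, 1.03, 1.03, 1.08 and 1.06 for complexes I to V, against 1.06, 1.01, 1.01, 1.06 and 1.04. The cause of these shifts was not tested. The replicate block, not a pairing that the labels give, otherwise gave 23 calls in mCre, 21 in WT and 39 across genotypes. Over single members and alternatives, 2658 values kept their call status, 259 lost a call and 22 gained one. Values not called in either fit were counted as kept even where their direction changed. Differences of a few percent are near the limit of 2 libraries per group.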

Other observations

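Some other mitochondrial genes were called with larger differences between the subsets than any called respiratory chain member. Idh2, the mitochondrial NADP-dependent isocitrate dehydrogenase, was lower in MP by a log2 fold change of -0.70 ± 0.09 in mCre (edgeR adjusted p = 1.34e-05) and -0.83 ± 0.09 in WT (edgeR adjusted p = 2.7e-06). It was the only member of the 19 TCA cycle genes lower in mCre. Suclg1, a subunit of succinyl-CoA ligase, was the only one higher there, at 0.39 ± 0.06 (edgeR adjusted p = 3.2e-05). In WT, Suclg1 (0.23) and Dlst (0.20) were higher and Pdha1 (-0.14) was lower beside Idh2. These are smaller shares than over all genes, where 17% were higher and 15.5% lower in mCre, and 16.2% and 15.6% in WT. Of 14 fatty acid oxidation genes, 1 was higher and 1 lower in mCre, and 2 were higher and 1 lower in WT, again below those shares. Acadm, the medium-chain acyl-CoA dehydrogenase, was lower in MP in both genotypes, at -0.37 ± 0.06 in mCre and -0.41 ± 0.06 in WT. Decr1 was higher, at 0.31 ± 0.10 and 0.45 ± 0.11.

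Among 18 tested regulators of mitochondrial biogenesis, 3 were higher and 2 lower in MP in mCre, against 17% and 15.5% of all genes. In WT 3 were higher and 3 lower, against 16.2% and 15.6%, so these counts are near or below the shares over all genes. Tefm, the mitochondrial transcription elongation factor, was higher in MP by 0.86 ± 0.14 in mCre (edgeR adjusted p = 5.43e-05) and 0.72 ± 0.14 in WT (edgeR adjusted p = 0.00057). Myc was higher by 0.28 ± 0.05 in mCre and 0.24 ± 0.05 in WT. Polg2, the accessory subunit of the mitochondrial DNA polymerase, was lower, at -0.41 ± 0.12 in mCre and -0.64 ± 0.13 in WT. Nrf1, the factor whose motif was searched above, was called lower in WT-MP at -0.24 ± 0.07 (edgeR adjusted p = 0.00863). Vdac1, the outer membrane channel, was lower in MP by -0.29 ± 0.06 in mCre and -0.25 ± 0.06 in WT, whereas Slc25a4, an ATP/ADP carrier of the inner membrane, was higher, at 0.22 ± 0.05 and 0.14 ± 0.05.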
